A study of Mus musculus with 24 samples.

Results

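Chromatin that was open in the list labelled W1, for epidermal stem cells (EpdSCs) 1 week after induction of SOX9, and in no other in vivo peak list of the series, is described here. The assay was ATAC-seq: a transposase cuts and tags DNA that is free of nucleosomes, so that a peak of reads marks an accessible region. Peaks of the 5 in vivo lists (D0, W1, W2, W6 and W12) were joined where they overlapped by at least 1 bp, which gave 98240 regions. Of these, 4600 had a peak in the W1 list and in none of the other 4 lists (4.68% of all in vivo regions). These W1-only regions were selected on the peak calls themselves, so their presence pattern and their W1 peak scores are descriptions and support nothing by themselves. They made up 8.02% (95% Wilson interval 7.81 to 8.25%) of the 57321 regions with a W1 peak. Of the 8816 regions absent at D0 and present at W1, 52.2% were W1-only and 2339 were also present at W2.

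The mice were CD1 males of the genotype K14rtTA; TRE-myc-Sox9, in which the Krt14 promoter drives the reverse tetracycline transactivator and doxycycline (DOX) therefore switches on MYC-tagged SOX9 in skin epithelium. By the labels, all 5 in vivo groups carried both transgenes, D0 included, and no DOX-treated in vivo group without TRE-myc-Sox9 was used here. The groups were D0 (postnatal day 21, before DOX), W1 (day 28), W2 (day 35), W6 (day 63) and W12, so age rose together with the weeks of DOX, and the effect of the one cannot be told apart from that of the other. Ungrafted mice received DOX from day 21, first by injection and then in feed. The W12 cells came from newborn skin grafted onto immunocompromised Nude hosts. Back-skin cells were sorted as negative for CD31, CD45, CD117, CD140a and CD34 and high for CD49f and Ly6A, and each replicate pooled several male mice. The 7 culture groups were keratinocytes of newborn male skin: uninduced cells (noDOX) and DOX-treated cells with wild-type SOX9 (WT-SOX9), SOX9 deprived of the HMG domain that binds DNA (ΔHMG-SOX9), SOX9 deprived of the domain that activates transcription (ΔTA-SOX9), AFOS, SOX9+AFOS or SOX9+ARID1a. By the labels, noDOX and WT-SOX9 cells were K14rtTA; TRE-myc-Sox9, and the ΔHMG-SOX9 and ΔTA-SOX9 cells had TRE-myc-Sox9noHMG and TRE-myc-Sox9noTA in its place. AFOS cells carried K14rtTA with TRE-FLAG-AFOS, and the combined groups added TRE-FLAG-AFOS or TRE-ARID1a to both original transgenes. DOX in culture was 1 µg/ml. The labels of replicate 1 of WT-SOX9, ΔHMG-SOX9 and ΔTA-SOX9 name day 3, against weeks of DOX in vivo, and those of the other DOX-treated culture samples give no time. AFOS is an altered FOS that sequesters AP1 factors away from DNA, and ARID1a belongs to the SWI/SNF complex, which moves nucleosomes. The peak names of the lists with AFOS or ARID1a record fragments as input, unlike the others, and the part of this in results on those lists was not tested. Each of the 12 groups had 2 samples, which the authors merged before calling peaks. No spread between replicates could therefore be computed, and every interval below covers counting error only and compares lists, with regions as the units.

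SOX9 is a pioneer transcription factor of hair follicle stem cells that can bind its motif in closed chromatin. Epidermal stem cells normally lack it and rely on factors such as p63, AP1 and GATA3 to keep epidermal enhancers open.

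As a check on the labels, a peak confined to Sox9 exon 3 (chr11:112784672-112787760), which transgene DNA without introns can give, was looked for in each list. It was present at D0 (score 13.5), W2 (15.1), W6 (9.22) and W12 (8.84) and absent from the list labelled W1, which had no peak overlapping the exon at all. In culture it was present in noDOX (3.71), SOX9+AFOS (5.11) and SOX9+ARID1a (3.71) and absent from AFOS, WT-SOX9, ΔHMG-SOX9 and ΔTA-SOX9. A peak reaching beyond the exon overlapped it in WT-SOX9 (21.2) and ΔHMG-SOX9 (71.9). The confined peak was thus missing from W1, WT-SOX9, ΔHMG-SOX9 and ΔTA-SOX9, whose labels all name a Sox9 transgene. Of these, W1 and ΔTA-SOX9 had no overlapping peak either. The check therefore does not show whether the list labelled W1 holds cells with the Sox9 transgene. W1 below is short for that list. Promoter peaks at Krt5, Krt14, Itga6, Itgb4 and Trp63, which mark basal epidermal cells, were present in all 5 in vivo lists, whereas Ly6a had one at D0 and W2 alone. Of the genes for surface proteins that the sort removes, Ptprc and Kit had no promoter peak in any in vivo list, Pdgfra had one in all 5, Cd34 had one at W6 and W12, and Pecam1 had one in every list but W1. The lists ranged from 57334 peaks (D0) to 75956 peaks (W6), and the files give no read depth.

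The sequences below show what W1-only regions look like in DNA: the central 200 bp of the strongest regions and of strong ones with a match to a SOX, AP1, GATA or CTCF motif. In each set, matches to the motif for which the set is shown are in capitals and all else, other motifs included, is in lower case, on the plus strand of GRCm38. The first pair have the highest scores after that of the top region, which is named later and whose sequence is not shown, with any match to SOX, AP1 or GATA in capitals. The SOX motif was searched as ACAATGG together with its close variant ACAATAG. The AP1 motif was searched as TGACTCA, whose reverse complement is TGAGTCA. Matches to the binding motif of GATA factors were searched as AGATAA. The chromosome 10 sequence had none of these 3, and the chromosome 7 sequence had 1 GATA match.
chr10:19765674-19765873, intergenic: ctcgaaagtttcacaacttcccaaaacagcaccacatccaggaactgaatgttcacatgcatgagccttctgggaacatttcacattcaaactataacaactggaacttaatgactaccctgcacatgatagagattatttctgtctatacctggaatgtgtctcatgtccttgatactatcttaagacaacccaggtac
chr7:130745443-130745642, intron: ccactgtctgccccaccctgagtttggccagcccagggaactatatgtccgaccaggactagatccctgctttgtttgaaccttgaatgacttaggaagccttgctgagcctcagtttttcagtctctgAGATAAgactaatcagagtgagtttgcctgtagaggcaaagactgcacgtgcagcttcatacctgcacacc

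Next are the 3 highest-scoring regions with a SOX match, of which the reverse complement is written CCATTGT, in the variant CTATTGT. They lay in intergenic DNA (nearest TSS Tox3), in an intron of Pitpna and in an intron of Myo5a, with W1 scores of 17.7, 8.77 and 8.52.
chr8:90058756-90058955, intergenic: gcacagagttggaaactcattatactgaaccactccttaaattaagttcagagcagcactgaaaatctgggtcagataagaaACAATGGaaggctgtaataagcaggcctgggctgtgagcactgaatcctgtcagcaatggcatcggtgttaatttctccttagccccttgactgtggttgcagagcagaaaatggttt
chr11:75612054-75612253, intron of Pitpna: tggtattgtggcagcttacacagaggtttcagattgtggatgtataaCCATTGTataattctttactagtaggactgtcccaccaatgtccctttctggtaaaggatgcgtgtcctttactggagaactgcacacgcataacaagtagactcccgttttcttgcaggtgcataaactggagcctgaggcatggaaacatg
chr9:75145495-75145694, intron of Myo5a: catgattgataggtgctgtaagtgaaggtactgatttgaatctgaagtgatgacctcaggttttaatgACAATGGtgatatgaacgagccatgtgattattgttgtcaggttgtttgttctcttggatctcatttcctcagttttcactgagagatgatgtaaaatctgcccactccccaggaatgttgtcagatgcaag

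The 3 highest-scoring regions with an AP1 match had scores of 17.5, 14.7 and 10.3 and were all intergenic.
chr4:111829494-111829693, nearest TSS Spata6: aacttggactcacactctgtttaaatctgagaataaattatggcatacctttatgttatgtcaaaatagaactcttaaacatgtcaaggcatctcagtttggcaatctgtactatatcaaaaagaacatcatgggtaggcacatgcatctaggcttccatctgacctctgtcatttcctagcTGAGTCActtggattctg
chr5:144703707-144703906, nearest TSS Gm6272: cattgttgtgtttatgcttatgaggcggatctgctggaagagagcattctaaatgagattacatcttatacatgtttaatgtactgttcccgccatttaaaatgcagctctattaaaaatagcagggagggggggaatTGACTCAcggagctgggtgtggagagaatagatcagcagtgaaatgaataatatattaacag
chr1:76586176-76586375, nearest TSS Mir6343: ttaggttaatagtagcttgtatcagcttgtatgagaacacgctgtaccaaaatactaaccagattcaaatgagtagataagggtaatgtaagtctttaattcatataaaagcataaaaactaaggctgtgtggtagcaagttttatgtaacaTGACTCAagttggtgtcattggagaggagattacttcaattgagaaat

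Examples with a GATA match (TTATCT on the reverse strand) and with a CTCF match were added after the motif shares were seen. The 3 GATA examples, the highest-scoring not already shown, had scores of 16.4, 15.8 and 15.6, and the 2 CTCF examples had scores of 8.09, the highest among W1-only regions with a CTCF match, and 7.42.
chr7:99041952-99042151, intron of Uvrag, GATA: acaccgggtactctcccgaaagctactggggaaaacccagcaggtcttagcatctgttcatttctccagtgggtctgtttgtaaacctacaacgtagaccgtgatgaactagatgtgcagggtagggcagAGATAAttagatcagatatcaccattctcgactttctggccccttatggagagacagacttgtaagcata
chr1:88953625-88953824, intergenic, GATA: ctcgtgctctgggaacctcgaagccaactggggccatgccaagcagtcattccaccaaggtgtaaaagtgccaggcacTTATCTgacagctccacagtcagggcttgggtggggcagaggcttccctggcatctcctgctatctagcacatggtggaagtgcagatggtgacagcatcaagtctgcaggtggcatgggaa
chr9:114458499-114458698, intron of Glb1, GATA: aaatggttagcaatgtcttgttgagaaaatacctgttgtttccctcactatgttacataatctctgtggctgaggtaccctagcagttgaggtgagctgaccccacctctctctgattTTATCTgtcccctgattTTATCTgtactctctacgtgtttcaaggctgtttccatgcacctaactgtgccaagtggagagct
chr4:117139315-117139514, intergenic, CTCF: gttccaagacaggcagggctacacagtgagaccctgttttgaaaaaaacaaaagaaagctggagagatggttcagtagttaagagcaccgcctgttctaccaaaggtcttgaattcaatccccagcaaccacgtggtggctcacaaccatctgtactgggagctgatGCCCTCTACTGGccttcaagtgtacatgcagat
chr9:43107334-43107533, 195 bp from the Arhgef12 TSS, CTCF: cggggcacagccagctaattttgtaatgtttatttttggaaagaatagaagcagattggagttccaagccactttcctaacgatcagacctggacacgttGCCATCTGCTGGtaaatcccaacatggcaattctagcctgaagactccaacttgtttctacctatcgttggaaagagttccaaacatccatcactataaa

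W1-only regions were mostly weak peaks. Each held exactly 1 W1 peak, with a median authors' score of 4.09 (25th to 75th percentile 3.41 to 5.18, highest 28.7), where the score is the peak's significance scaled within its list and 3 is the lowest score kept. The other 52721 W1 regions had a median score of 11.7. A score of at least 5 was reached by 1294 W1-only regions (28.1%) and by 82.5% of the other W1 regions, and a score of at least 10 by 89 W1-only regions. Their median fold enrichment over local background was 5.35, against 7.95 in the other W1 regions, and their median width was 364.5 bp, against 688 bp. Identical pairs of score and fold recurred: 2397 W1-only regions shared both values with another, and 301 had a score of 3.19 and a fold of 5.15. The order among such regions therefore carries no information.

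The share of W1 regions that no other list held fell with every step in score. It was 30.9% between scores of 3 and 4, 12.9% between 5 and 6, 3.34% between 8 and 10 and 0.1002% between 15 and 30, and none of the 9713 W1 regions with a score of 30 or more was W1-only, which allows a share of up to 0.0395% (Wilson). The other lists had their own weak, unshared regions: 1424 regions were D0-only (2.56% of D0 regions, median score 3.73), 2531 W2-only (4.16%, 4.39), 7954 W6-only (10.8%, 3.92) and 5272 W12-only (7.57%, 3.87). The median scores of the regions held by 1 list alone thus lay between 3.73 and 4.39 in all 5 lists, although a score does not stand for the same −log10 q-value in each list: the lowest was 14.5 at D0, 9.37 at W1 and 4.21 at W2.

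**Figure D1:**
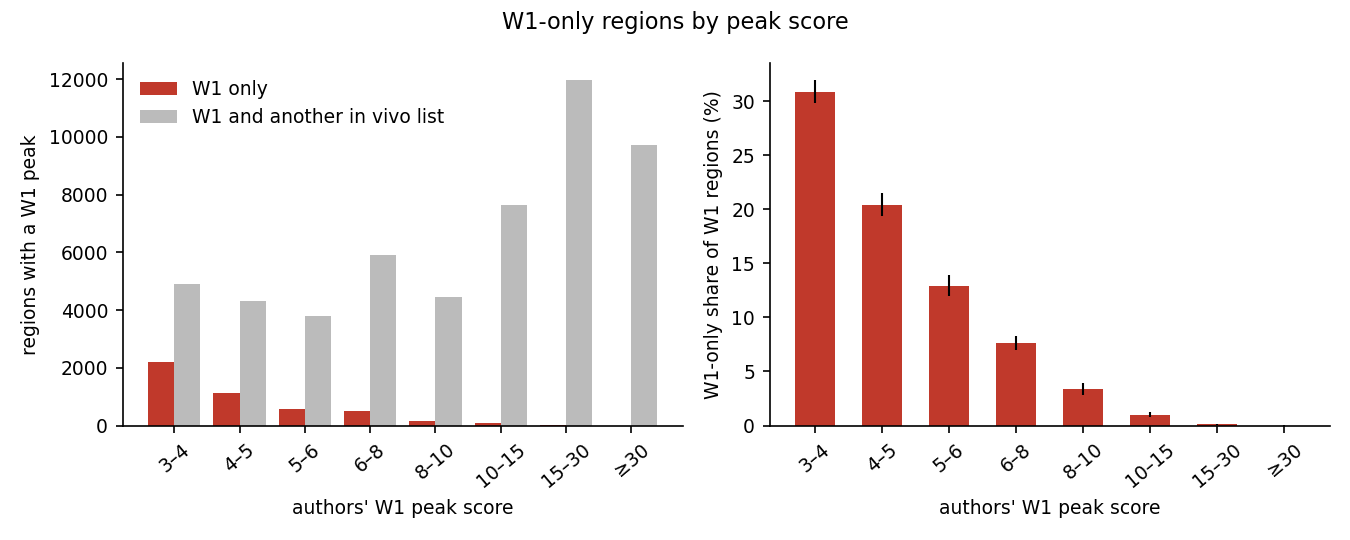
The left panel counts regions with a W1 peak by the authors' W1 peak score, split into W1-only regions (red) and regions shared with another in vivo list (grey); the right panel gives the W1-only share of each score bin in percent, with 95% Wilson intervals. The share falls from 30.9% between scores of 3 and 4 to 0.1002% between 15 and 30.

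The 5 lowest members had scores between 3.00022 and 3.00174, and the nearest protein-coding genes were Ktn1, Foxq1, Tjp1, Pdcd6ip and Bmp4. Just outside the rule were W1 regions kept out by a peak of 1 other list at the threshold, such as one 123 bp from the Parl TSS (W1 score 4.55, D0 score 3.002) and one 4 bp from the Pitpnm3 TSS (W1 score 10.9, W2 score 3.004). In all, 5728 W1 regions were shared with exactly 1 other list: 4068 with D0, 453 with W2, 687 with W6 and 520 with W12. The score of the other list was below 4 in 1996 of them (34.8%), so that a weak peak of the other list kept these out. Another 736 W1-only regions (16%) had a peak of another in vivo list within 500 bp, without overlap.

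Of the 10 strongest W1-only regions, none lay within 1 kb of a TSS. The highest score of all, 28.7, belonged to an intergenic region of 670 bp (chr18:88084613-88085282) with a fold enrichment of 13.8 and no peak in any culture list. It was followed by chr10:19765368-19766180 (score 23.0, fold 14.2), 53140 bp from the TSS of Il20ra, a cytokine receptor gene. The third, chr7:130745203-130745882 (score 20.4), lay 10799 bp from the TSS of Tacc2, which encodes a centrosomal protein. It alone among the 10 strongest had culture peaks, in the noDOX (score 8.02), SOX9+AFOS (11.3) and SOX9+ARID1a lists (15.3). The gene model of Fgfr2 in this annotation spans 130162451 to 133123350 of chromosome 7 and so overlaps it too. The others were 289270 bp from Tox3, 68384 bp from Mylip, 7331 bp from Spata6, in an intron of Uvrag (a gene of autophagy), 59314 bp from Abcd2, in an intron of Tango2 and 116690 bp from Sh3bp4, with scores of 15.8 to 17.7. Among the 10, only the one near Tox3 held a SOX match and only the one near Spata6 an AP1 match, whereas 4 held a GATA match. The shares over all W1-only regions were 2.44% (SOX), 7.11% (AP1) and 19.9% (GATA). Over all in vivo regions they were 5.33%, 19.6% and 10.5%, and 10 regions are too few to compare with either.

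Where W1-only regions lay was examined next, since position was not used to choose them. Of the 4598 on assembled chromosomes, 602 (13.1%, 12.1 to 14.1%) were centred within 1 kb of a transcription start site (TSS). Another 46.5% lay in introns, 36.1% between genes, 1.26% in coding exons and 3.07% in other exons, and the median distance to the nearest TSS was 8658.5 bp. D0-only regions (13.8% near a TSS) and W2-only regions (12.5%) did not differ from them beyond counting error: the differences were -0.74 points (95% Newcombe interval -2.86 to 1.23) and 0.60 points (-1.04 to 2.19). To compare with peaks of similar strength, W1 regions with a score below 5 that another in vivo list also held were used (weak shared W1 regions, 9244 in number). These were near a TSS more often, at 16.5% (difference -3.41 points, -4.63 to -2.16), and the share over all in vivo regions was 21.7%. Regions open at D0 and W1 alone were near a TSS less often, at 8.11%. The order of these sets changed with the rule. The difference to D0-only regions was 3.87 points with a score of at least 5 in every list, -2.32 with lists of equal size and -2.18 with a peak within 500 bp counted as shared, all with intervals that excluded 0. To W2-only regions it was 4.01 points with the score minimum, 3.20 with equal sizes and 10.6 with a common −log10 q minimum in every list, again excluding 0. Under that minimum the difference to weak shared W1 regions was 1.15 points, with an interval that included 0.

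**Figure D2:**
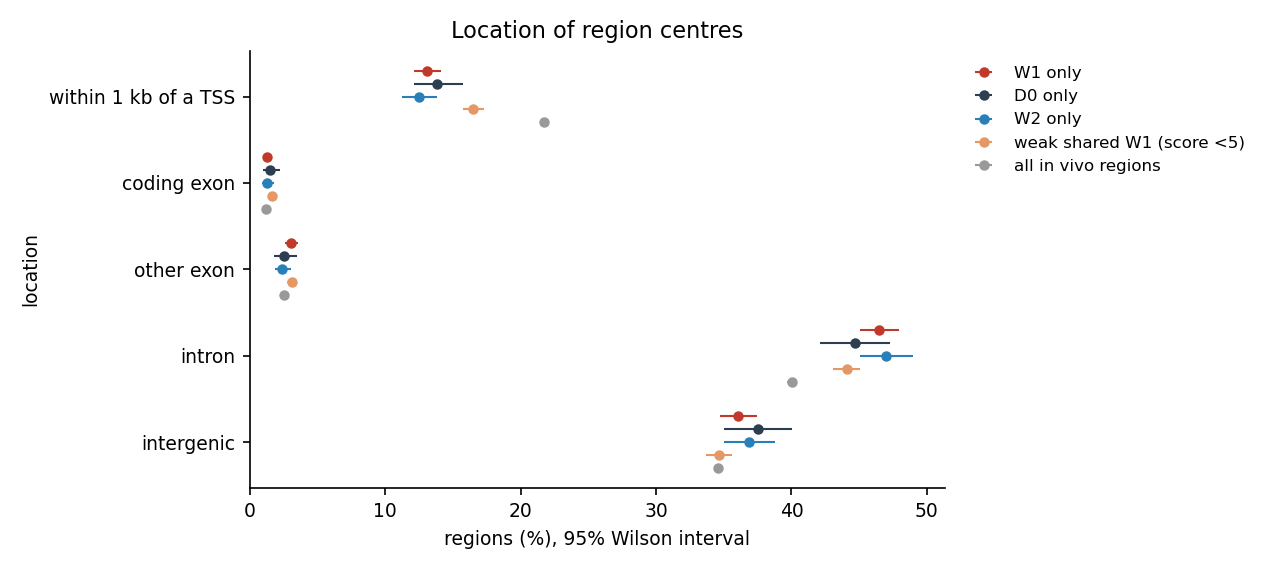
Share of regions in percent by the location of the region centre, for W1-only regions (red), D0-only (dark blue), W2-only (light blue), weak shared W1 regions (orange) and all in vivo regions (grey); bars are 95% Wilson intervals. W1-only, D0-only and W2-only regions lie together at 12.5 to 13.8% near a TSS, below the 21.7% of all regions.

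W1-only regions near a TSS and far from one differed from each other. The 602 near a TSS had a mean of 7.93 CpG per 200 bp, against 2.61 in the 3996 others, and 23.3% against 5.36% of them matched the SP/KLF motif GGGCGG. Of the 602, 296 (49.2%) had a peak of another in vivo list within 1 kb, against 22.8% of the others, so that many sat beside a peak of the other lists without touching it. Examples in all 7 culture lists were the regions 627 bp from the TSS of Dmtf1, 603 bp from Ptma and 402 bp from Hnrnpd, whose W1 scores were 4.41, 4.90 and 3.14 and whose noDOX scores were 62.7, 44.0 and 42.5.

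To ask which transcription factor motifs W1-only regions held, the central 200 bp of each region was searched on both strands. The SOX motif was rare. It was found in 112 W1-only regions (2.44%, 2.03 to 2.92%), against 9.72% of W2-only regions (difference -7.29 points, -8.57 to -6.09), 4.22% of weak shared W1 regions (-1.78, -2.38 to -1.16) and 5.33% of all in vivo regions. D0-only regions, which precede DOX, held it in 2.53% (-0.09, -1.13 to 0.76), and W1 regions shared with 1 later list in 4.86% (W2), 3.20% (W6) and 2.88% (W12). Around the W1 summit the motif thinned out: there were 0.113 matches per kb within 50 bp of the summit and 0.241 in the flanks 300 to 500 bp away, a ratio of 0.470 (95% interval 0.352 to 0.626). The same ratio was 0.64 (0.399 to 1.03) in D0-only regions, with an interval that overlapped that of W1-only regions, 0.806 (0.684 to 0.949) in weak shared W1 regions and 2.25 (1.84 to 2.76) in W2-only regions. Among these 4 sets SOX motifs were thus denser at the centre than beside it in W2-only regions alone. The list labelled W1 was also the in vivo list without the Sox9 exon 3 peak, and the part of this in the SOX shares was not tested. With a looser SOX consensus the difference to weak shared W1 regions was -0.21 points, with an interval that included 0.

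GATA matches, the binding sequence of factors such as GATA3 in epidermis, were the commonest of the motifs searched. The motifs differ in length, and a shorter one turns up more often in any sequence, so shares of different motifs are not comparable. They occurred in 916 W1-only regions (19.9%, 18.8 to 21.1%), against 14.4% of W2-only regions (difference 5.53 points, 3.72 to 7.30), 10.8% of weak shared W1 regions (9.09, 7.79 to 10.4) and 10.5% of all in vivo regions. D0-only regions had 20.4% (-0.44, -2.89 to 1.89), and regions open at D0 and W1 alone had 24.0%. Among W1 regions shared with 1 later list the share was 15.9% with W2, 7.57% with W6 and 8.85% with W12. The matches gathered at the summit, with 1.21 per kb within 50 bp against 0.603 in the flanks (ratio 2.01, 1.82 to 2.23). They also did so in D0-only regions (1.83, 1.53 to 2.18), with an interval that overlapped, and less in W2-only regions (1.34, 1.15 to 1.56). Weak shared W1 regions showed no such rise (1.004, 0.914 to 1.10). Of the 916 regions, 134 held at least 2 matches, 80 also held an AP1 match and 17 a SOX match. The share was 20.02%, 18.9% and 22.02% in W1-only regions with scores of 3 to 4, 4 to 6 and 6 or more, so the weakest peaks did not carry it. With a common −log10 q minimum of 14.5 in every in vivo list, the difference to W2-only regions was gone (-0.09 points), and with a score of at least 5 in every list the difference to D0-only regions was -3.07 points (-5.72 to -0.566).

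AP1 matches were below the share of all in vivo regions. AP1, the FOS and JUN dimer that acts at many epidermal enhancers, matched 327 W1-only regions (7.11%, 6.40 to 7.89%), against 17.3% of D0-only regions (difference -10.2 points, -12.4 to -8.20), 9.41% of W2-only regions (-2.30, -3.69 to -0.97), 17.03% of weak shared W1 regions (-9.92, -11.0 to -8.84) and 19.6% of all in vivo regions. W1 regions shared with 1 later list alone held an AP1 match in 3.75% (2.36 to 5.93%) with W2, 5.97% with W6 and 15.8% with W12. At the summit of W1-only regions AP1 matches were still 2.74 (2.28 to 3.30) times as dense as in the flanks, compared with 8.91 (6.83 to 11.6) times in D0-only regions. The ratio was 6.73 (6.11 to 7.42) in weak shared W1 regions and 3.46 (2.75 to 4.36) in W2-only regions, the latter overlapping the interval of W1-only regions. W1-only and D0-only regions thus did not differ beyond counting error in SOX and GATA matches and differed in AP1. The AP1 difference to W2-only regions was -0.38 points under the common −log10 q minimum and -0.90 in full regions, both with an interval that included 0. Full regions were wider in W1-only regions (median 364.5 bp) than in W2-only regions (252 bp).

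CTCF, the insulator protein, also set W1-only regions apart from D0-only ones. Its motif was found in 181 W1-only regions (3.94%, 3.41 to 4.54%), more than in D0-only (1.33%, difference 2.60 points, 1.69 to 3.37) and W2-only regions (1.94%, 2.00, 1.19 to 2.76), but less than in weak shared W1 regions (6.16%, -2.22, -2.95 to -1.46), and the share of all in vivo regions was 2.40%. W1 regions shared with 1 later list held it in 5.52% (W2), 10.04% (W6) and 12.5% (W12), and regions open at D0 and W1 alone in 0.615%. In contrast to GATA, these matches were rarer in W1-only regions with scores of 6 or more, at 0.684% (0.293 to 1.59%). The share was 4.79% (3.97 to 5.76%) at scores of 3 to 4 and 4.24% (3.38 to 5.32%) at 4 to 6, with intervals that overlapped. They gathered at the summit, with 140 matches within 50 bp of it and 9 in the flanks 300 to 500 bp away. The difference to weak shared W1 regions reversed with lists of equal size (0.79 points), and with the common −log10 q minimum its interval included 0 (0.75 points).

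Other motifs followed. RUNX (TGTGGT) matched 12.8% of W1-only regions, which did not differ beyond counting error from D0-only (13.3%) or W2-only regions (12.1%) and were below weak shared W1 regions (14.1%, -1.38, -2.56 to -0.16), although the difference was 2.29 points to D0-only regions with a score of at least 5 in every list and 7.80 to W2-only regions in full regions. A search of full regions covers more sequence in W1-only regions (median width 364.5 bp) than in W2-only regions (252 bp). The part of width in this difference was not tested. TEAD (GGAATG), the partner of YAP, matched 14.03%, against 16.6% of D0-only (difference -2.62 points, -4.86 to -0.50) and 20.2% of W2-only regions (-6.21, -8.09 to -4.37), but 13.8% of weak shared W1 regions (0.19, -1.02 to 1.43) and 13.8% of all in vivo regions. The LHX homeobox core (TAATTA) matched 6.59%, against 4.15% of W2-only (2.44, 1.35 to 3.48) and 4.16% of weak shared W1 and of all in vivo regions. D0-only regions (6.18%, 0.41, -1.12 to 1.77) and regions open at D0 and W1 alone (7.47%, -0.88, -1.97 to 0.19) did not differ from W1-only regions in it beyond counting error. FOX (TGTTTAC) matched 3.72%, against 5.42% of W2-only regions (-1.70, -2.78 to -0.69), 3.23% of D0-only, 3.37% of weak shared W1 and 2.97% of all in vivo regions. The p63 motif matched 3.59%, against 2.45% of W2-only (1.14, 0.30 to 1.92), 3.09% of D0-only (0.499, -0.65 to 1.47) and 2.62% of all in vivo regions. The TBX motif AGGTGTGA, searched as a control, was found in 1.22% of W1-only regions and 1.19 to 1.31% of the 3 comparison sets. A match is a run of letters and does not show binding; 60.7% of W1-only regions matched none of SOX, AP1, GATA, RUNX and CTCF, against 55.2% of D0-only and 60.1% of W2-only regions. Motifs overlapped each other seldom, 20 of 1065 GATA matches and 7 of 115 SOX matches in W1-only regions sharing a base with another motif. Median GC content was 47% in W1-only, 48% in D0-only, 48.5% in W2-only and 50% in weak shared W1 regions. With regions of 45 to 55% GC alone, an alternative chosen after seeing the data, the intervals still excluded 0 for SOX against W2-only and weak shared W1 regions, for AP1 and CTCF against all 3 sets and for GATA against W2-only (3.23 points) and weak shared W1 regions (6.11 points), and GATA also fell below D0-only regions (-3.46 points).

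**Figure D3:**
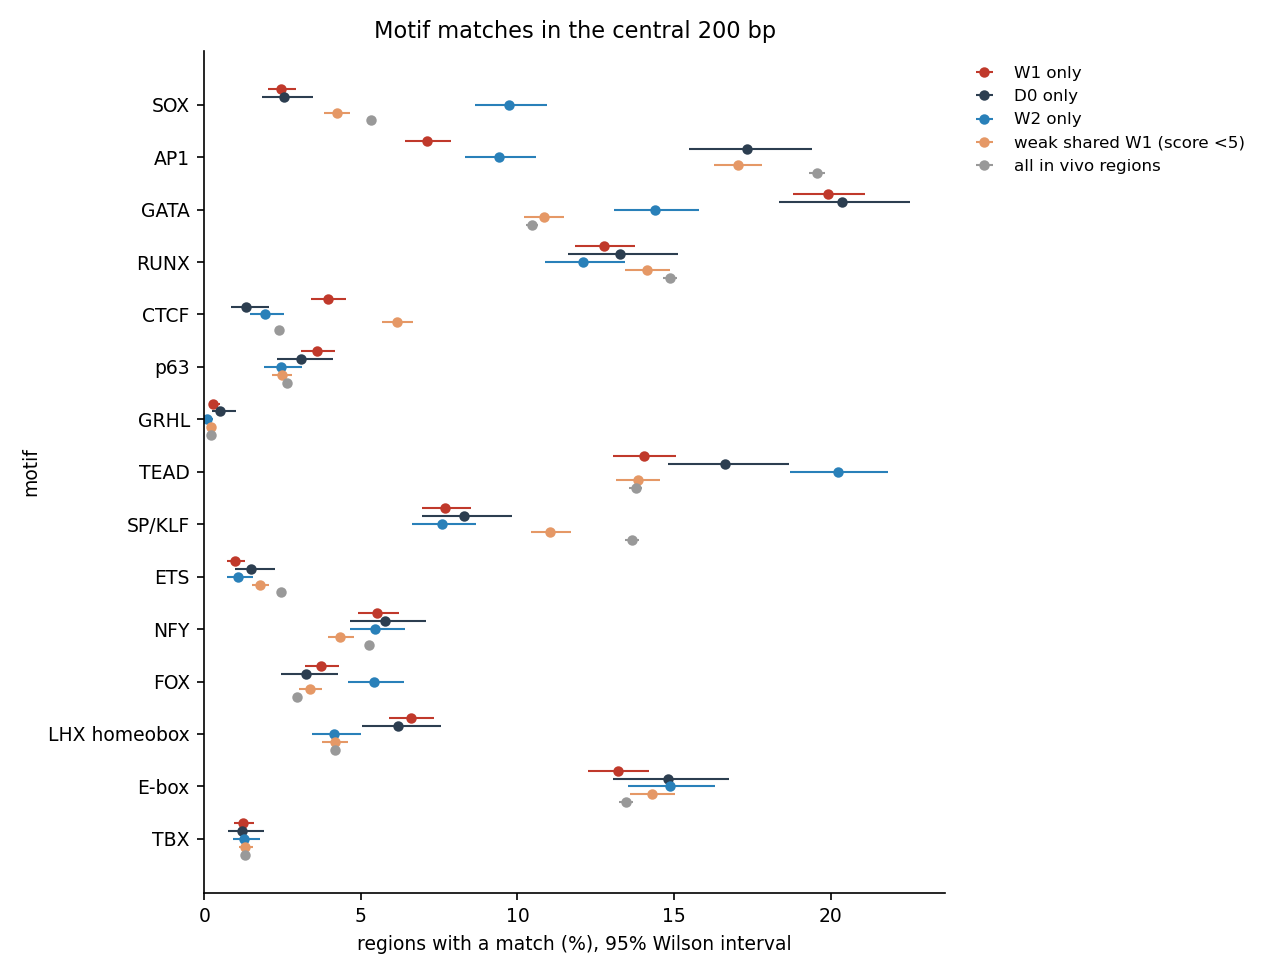
Percentage of regions with a match to each of 15 motifs in the central 200 bp, with 95% Wilson intervals, for W1-only regions (red), D0-only (dark blue), W2-only (light blue), weak shared W1 regions (orange) and all in vivo regions (grey). W1-only regions lie with D0-only regions for SOX (2.44 and 2.53%) and GATA (19.9 and 20.4%) and below them for AP1 (7.11 and 17.3%).

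**Figure D4:**
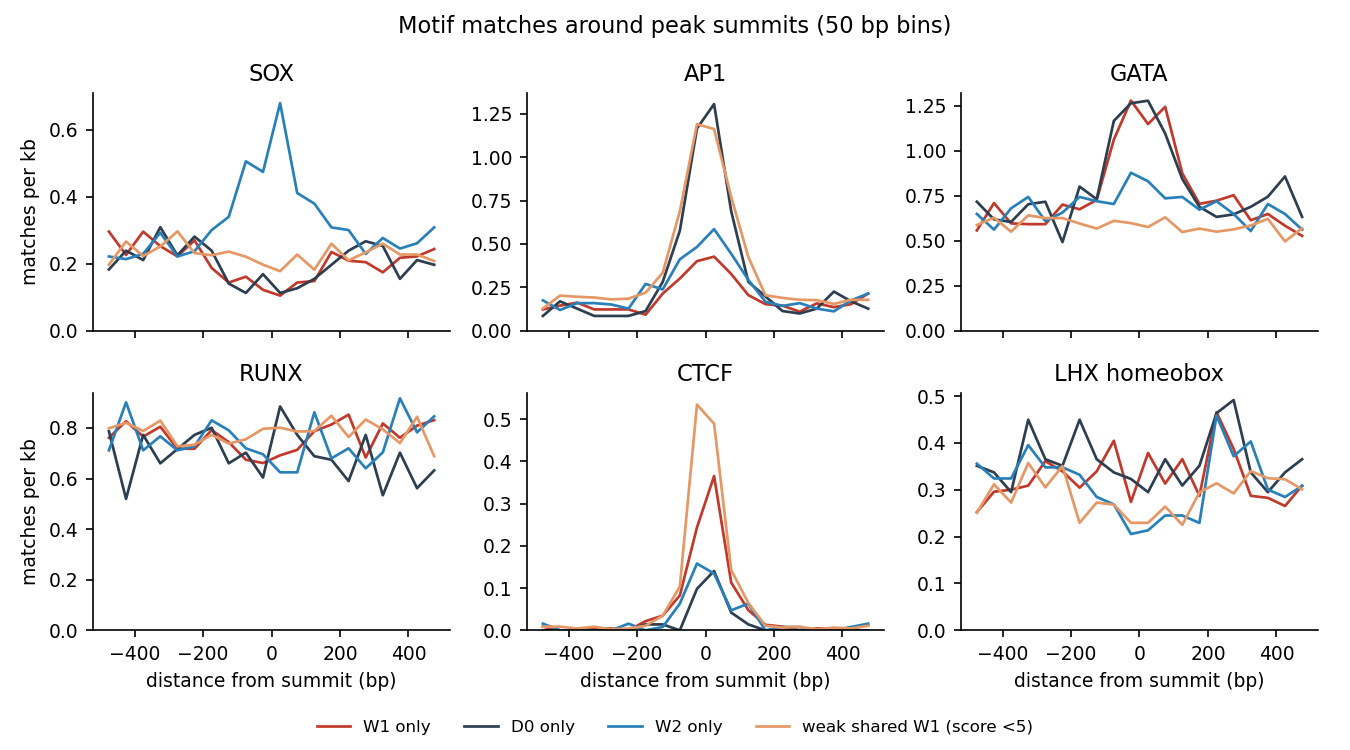
Matches per kb to 6 motifs in 50 bp bins by distance from the peak summit of each class's own list (W1 for W1-only and weak shared W1 regions, D0 for D0-only, W2 for W2-only). In W1-only regions (red) GATA, AP1 and CTCF rise at the summit, whereas SOX falls to 0.113 per kb within 50 bp of it.

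Whether W1-only regions were open in cultured EpdSCs was then asked of the 7 culture lists, none of which had a part in choosing them. Most were in none: 3419 (74.3%) had no culture peak, 368 had a peak in 1 list and 100 (2.17%) in all 7. A peak in any culture list was found for 25.7% of W1-only, 23.0% of D0-only, 30.5% of W2-only and 61.8% of all in vivo regions, and a peak in all 7 for 2.39% of D0-only, 2.53% of W2-only and 24.3% of all in vivo regions. By list, 11.4% were present in noDOX, 9.83% in WT-SOX9, 10.6% in ΔHMG-SOX9, 9.74% in ΔTA-SOX9, 12.4% in AFOS, 15.2% in SOX9+AFOS and 10.04% in SOX9+ARID1a. Weak shared W1 regions were present far more often, from 32.3% (SOX9+ARID1a) to 39.2% (noDOX), and all in vivo regions from 39.9% to 45.4%. These shares moved with the rule: with lists of equal size 16.4% of W1-only regions were present in noDOX, 15.2% in WT-SOX9 and 21.02% in SOX9+AFOS, and with the common −log10 q minimum 20.8%, 19.5% and 24.9%. In noDOX cells they did not differ beyond counting error from D0-only (10.6%, difference 0.83 points, -1.09 to 2.60) or W2-only regions (11.7%, -0.22, -1.80 to 1.31). These calls changed with the rule: to W2-only regions the difference was 2.35 points with lists of equal size and 7.81 with the common −log10 q minimum, and to D0-only regions it was 2.63 with that minimum and -4.61 without the W12 list, each with an interval that excluded 0.

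Wild-type SOX9 in culture opened a smaller share of them than of all in vivo regions, and a larger one than of D0-only regions. Of the 4074 W1-only regions absent in noDOX, 153 (3.76%, 3.21 to 4.38%) had a WT-SOX9 peak, against 11.8% of all in vivo regions absent in noDOX, 10.2% of W2-only regions, 1.964% (1.33 to 2.88%) of D0-only regions and 1.51% (1.16 to 1.95%) of those open at D0 and W1 alone. ΔHMG-SOX9, which cannot bind DNA through that domain, opened 143 (3.51%), against 5.9% of all in vivo regions, and ΔTA-SOX9 also opened 143, against 8.88%. AFOS opened 245 (6.01%, background 8.67%), SOX9+ARID1a 180 (4.42%, background 11.2%) and SOX9+AFOS 360 (8.84%, background 13.1%). In every arm the share of W1-only regions opened was below that of in vivo regions as a whole, as were the shares of D0-only and W2-only regions. The order against D0-only regions differed by arm. W1-only regions were also above them in SOX9+AFOS (D0-only 5.26%), without overlap of the intervals. They were below them in ΔTA-SOX9 (2.99 to 4.12%, against 5.499%, 4.38 to 6.89%). In ΔHMG-SOX9, AFOS and SOX9+ARID1a these intervals overlapped. Opened counts of the 6 arms share the noDOX list. Of the 526 W1-only regions present in noDOX, 227 (43.2%, 39.0 to 47.4%) had no WT-SOX9 peak, against 21% of all in vivo regions present in noDOX, 53.0% of D0-only, 39.3% of W2-only and 28.5% of weak shared W1 regions. The share lost was 34.4% in ΔHMG-SOX9 (background 15.3%), 42.02% in ΔTA-SOX9 (16%), 38.0% in AFOS (15.9%), 35.9% in SOX9+AFOS (28%) and 46.4% in SOX9+ARID1a (18.6%). Losses were thus above the background in every arm, with or without SOX9, and D0-only and W2-only regions also lost more than the background in every arm. D0-only regions lost 31.8% in ΔHMG-SOX9 and in AFOS, and W2-only regions 36.6% in ΔHMG-SOX9 and 40.7% in ΔTA-SOX9, with intervals that overlapped those of W1-only regions. Without overlap, D0-only regions lost more in SOX9+AFOS (50.3%, 42.4 to 58.2%, against 31.9 to 40.1%), and regions open at D0 and W1 alone lost more in WT-SOX9 (60.6%, 55.5 to 65.5%) and less in SOX9+ARID1a (30.4%, 25.9 to 35.4%, against 42.2 to 50.7%).

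Presence in the SOX9+AFOS list was 15.2% in W1-only and 9.97% in D0-only regions (difference 5.18 points, 3.23 to 6.98), and 16.4% in W2-only regions (-1.28, -3.09 to 0.47). Presence in the WT-SOX9 list was 9.83%, above that of D0-only regions (6.74%, 3.08, 1.44 to 4.57) and below that of W2-only regions (16.1%, -6.29, -7.99 to -4.65). In the ΔTA-SOX9 list W1-only regions were below D0-only ones (12.1%, -2.34, -4.31 to -0.52), and in the SOX9+ARID1a list below W2-only ones (15.01%, -4.97, -6.64 to -3.36) and not different beyond counting error from D0-only ones (10.5%, -0.49, -2.39 to 1.25). The W1-only regions in the SOX9+AFOS list held an AP1 match in 4.45%, against 7.59% of those absent from it. In the AFOS (9.81%, 7.63 to 12.5%, against 6.73%, 5.996 to 7.55%), ΔTA-SOX9 (11.4%, 8.77 to 14.7%, against 6.65%, 5.93 to 7.45%) and SOX9+ARID1a lists (11.04%, 8.496 to 14.2%, against 6.67%, 5.95 to 7.47%) the order was the opposite, with intervals that did not overlap. In WT-SOX9 (7.30 and 7.09%), noDOX (8.94 and 6.88%) and ΔHMG-SOX9 (9.22 and 6.86%) the intervals overlapped. The difference to W2-only regions in the SOX9+AFOS list excluded 0 once a peak within 500 bp counted as shared (-1.956 points).

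W1-only regions with and without a culture peak differed in sequence. GATA matches were found in 11.8% of the 1181 with a peak in any culture list and in 22.7% of the 3417 with none (difference -11.0 points, -13.2 to -8.57). CTCF matches went the other way, at 8.21% against 2.46% (5.76, 4.21 to 7.52), as did SP/KLF matches, at 12.5% against 6.03% (6.503, 4.54 to 8.65). SOX matches were at 2.96% and 2.25% (0.71, -0.28 to 1.93) and AP1 matches at 7.20% and 7.08% (0.12, -1.50 to 1.92). Within 1 kb of a TSS, 42.2% of W1-only regions had a peak in some culture list, against 23.2% of those farther away.

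The W1-only regions that WT-SOX9 opened with the highest scores were mostly close to a TSS, 4 of the 5 within 1 kb. One lay 607 bp from the TSS of Mogat1, an acyltransferase gene of lipid synthesis (W1 score 4.03, WT-SOX9 score 99.8). The same region had scores of 69.5 in ΔTA-SOX9 and 26.0 in SOX9+AFOS. The next was 417 bp from the TSS of Atp2c1, a Golgi calcium pump needed for keratinocyte adhesion (5.08 and 61.3), and was found in no other culture list. Then came regions near Sesn2 (4528 bp from its TSS), Ssbp3 (326 bp) and Efnb1 (661 bp), with WT-SOX9 scores of 39.7, 35.3 and 30.2. None of these 5 held a SOX match, which was rare in W1-only regions at large: 3.76% of those in the WT-SOX9 list and 2.44% of all had one.

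**Figure D5:**
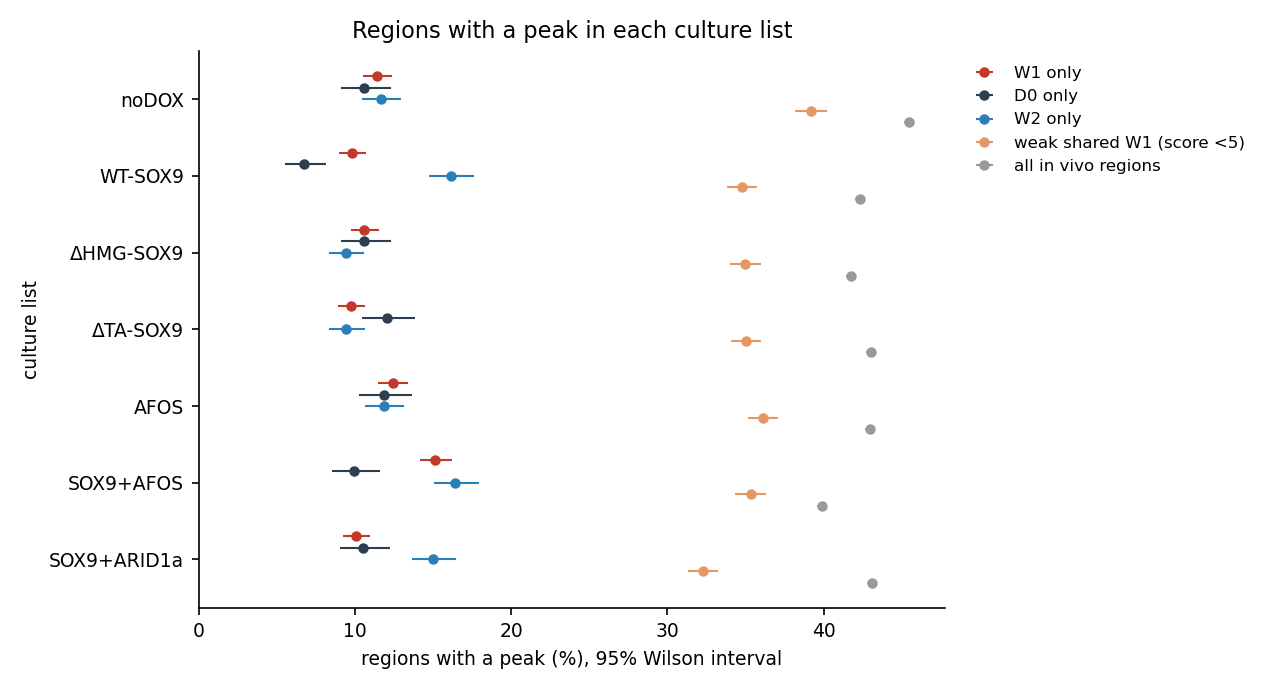
Percentage of regions with a peak in each of the 7 culture lists, with 95% Wilson intervals, for W1-only regions (red), D0-only (dark blue), W2-only (light blue), weak shared W1 regions (orange) and all in vivo regions (grey). W1-only regions lie between 9.74% (ΔTA-SOX9) and 15.2% (SOX9+AFOS), below weak shared W1 regions in every list.

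Which genes they lay near was counted in windows of the gene body with 10 kb on each side. Of 21911 protein-coding genes, 3081 had a W1-only region in the window (14.1%). Most of these had 1 (2445 genes) or 2 (477). W1-only regions were scattered, with a median of 73254 bp to the nearest other, and 586 (12.7%) had another within 10 kb. Windows of all protein-coding genes held 2.46 per Mb, and 7.59% of the W1 regions in those windows were W1-only. The same counts are given below for gene lists chosen with earlier results of these data known, without a test.

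The windows with the most W1-only regions were long. The gene model Gm20388 of this annotation, which spans 119910841 to 124345722 of chromosome 8 and takes in many other genes, had 25, and the long Fgfr2 model had 16. Adk (adenosine kinase), Nfib and Sox6 had 8 each, as did the long model Gm37240. In Nfib, a factor of hair follicle stem cells, all 8 lay in introns or by a start site, from a score of 3.13 to 8.60 (chr4:82531828-82532335), and 1 held a SOX match. In Sox6, a SoxD factor, 7 were intronic and 1 in an exon, with scores of 3.19 to 6.14, 2 GATA matches and no SOX match. Exph5, whose product acts in vesicle traffic of keratinocytes, had 6 in a window of 95.8 kb, or 62.6 per Mb, the densest of these 10 genes. The strongest of them (chr9:53348389-53348816, score 10.3) held a GATA match. Uvrag, Gse1 and Plcb1 also had 6 each (5 genes did in all), and those of Gse1 all lie in the Gm20388 model as well.

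Genes of the epidermal fate were among them. Of 22 epidermal identity factors, 5 had a W1-only region, among them Trp63 (the gene of p63) and Grhl2 with 3 each, Klf5 with 2 and Ehf with 1. The strongest at Trp63 (chr16:25829363-25830023, score 5.78) was intronic and held a GATA and a homeobox match. Of the 136 W1 regions in these windows 7.35% (4.04 to 13.0%) were W1-only, near the 7.59% of all genes. Of 20 genes of integrins and basement membrane, by which basal cells hold on to the dermis, 9 had one, with 19 W1-only regions in all (7.84 per Mb; 9.95% of W1 regions, 6.46 to 15.01%). Itga6, the gene of CD49f on which the cells were sorted, had 5, the strongest at chr2:71752308-71752781 (score 9.12). Others were at Lama3 (8.24) and Itgb5 (6.14). Of 20 terminal differentiation genes 6 had one each (12.8% of W1 regions, 5.98 to 25.2%), among them Hrnr (7.56, in an intron of Gm37245), Tgm3 (5.71), Sprr1a (3.97) and Ivl (3.56), and of 14 keratins (7.69% of W1 regions) Krt79 (3.96) and Krt10 (3.03) had one, while Krt16 and Krt17 shared one (3.07).

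Lists of follicle and signalling genes held from 1.75 (EGF) to 12.8 (WNT) W1-only regions per Mb. Of 20 hair follicle stem cell factors and markers, 5 had a W1-only region (15 in all; 8.47% of W1 regions, 5.20 to 13.5%): Nfib, Gli2 (7.63), Col17a1 (4.90, in an intron of Slk), Nfix (3.79) and Lgr6 (3.45). Of 22 hair shaft and inner root sheath genes 5 had one (14.6% of W1 regions, 7.25 to 27.2%), and the strongest (chr11:100100244-100100831, score 11.8) fell in the windows of the hair keratin genes Krt35 and Krt36. Of 12 hedgehog genes 5 had one (6.49% of W1 regions, 2.81 to 14.3%, against 7.59% of all genes), with Ptch1, the receptor, at 8.47 (721 bp from its TSS), then Gas1 (7.68), Gli2, Boc (3.74) and Smo (3.28). The WNT list had the highest density, with 16 W1-only regions at 9 of 22 genes (12.8 per Mb; 15.1% of W1 regions, 9.51 to 23.1%), which included the receptor gene Fzd6 (7.40, 8 bp from its TSS) and the ligand genes Wnt3a (5.31), Wnt7a (5.30) and Wnt5a (4.81). Of 26 TGF-beta and BMP genes 11 had one (10.3%, 6.45 to 16.1%), 5 of them receptor genes, such as Bmpr1a (8.99), Bmpr1b (6.496) and Tgfbr2 (5.06), beside the ligand gene Tgfb2 (4.70). Of 16 Notch genes 3 had one (3.90%): Maml2 (6.33), Jag1 (3.98) and Jag2 (3.89). Of 12 EGF receptor and ligand genes 5 had one (6.17%), led by Erbb4 (5.30) and Epgn (4.44).

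Lists of regulator genes lay on both sides of the 14.1% of all protein-coding genes. Of 13 AP1 subunit genes only Junb had one (3.49; 7.69% of the genes and 1.89% of their W1 regions), and of 4 RUNX factors and their partner only Runx3 (3.27; 4% of W1 regions). Of 16 SOX genes, 3 had one (18.75%; 14.9% of W1 regions, 8.31 to 25.3%): Sox6, Sox5 (4.49) and Sox2 (3.19, in an intron of Sox2ot). Sox9 had none. Of 18 SWI/SNF and MLL3/4 subunit genes 5 had one (27.8%; 9.18% of W1 regions, 4.91 to 16.5%): Pbrm1 (5.89, 31 bp from a TSS in Nt5dc2), Smarcd3 (5.34), Arid1b (5 regions, up to 5.26), Smarcc2 (3.75, 290 bp from a TSS in Myl6b) and Kmt2c (3.19). Cell cycle genes with one were Myc (7.40), E2f3 (4.76), Ccne1 (3.44) and Cdk6 (3.31), 4 of 25 (16%; 5.13% of W1 regions), and of 25 interferon and inflammation genes 4 had one (16%; 7.41% of W1 regions): Isg15 (8.36, 83 bp from a TSS in Agrn), Nfkb1 (5.92), Irf9 (5.34) and Stat3 (3.96).

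Marker genes of other cells of the skin were counted in the same way. No sebocyte or melanocyte gene of 12 each had a W1-only region in its window, 1 of 14 fibroblast genes did (Dpp4), 1 of 13 endothelial (Flt1), 2 of 12 T cell (Cd3e and Bcl11b), 1 of 14 Langerhans and myeloid (Cx3cr1, with 3), 2 of 9 mast cell (Cma1 and Tpsb2), 1 of 9 Merkel cell (Sox2), 2 of 10 Schwann and neural (Pmp22 and Ngfr), 3 of 10 muscle (Myog, Tnnt3 and Ckm) and 2 of 9 adipocyte genes (Cidec and Plin1). The share of genes was above the 14.1% of all protein-coding genes for muscle (30%), mast cell and adipocyte (22.2% each), Schwann and neural (20%) and T cell genes (16.7%) and below it for the other lists. Of the W1 regions in these windows, 50% were W1-only for mast cell genes (18.8 to 81.2%, 3 of 6), 20% for muscle (7.05 to 45.2%), 10% for adipocyte (2.79 to 30.1%) and 0 to 9.09% for the other 8 lists. Of these genes, Pmp22 had one 55 bp from its TSS, and that of Cidec and the weaker of the 2 at Cma1 were within 1 kb of a TSS of another gene model. Of 1464 olfactory and vomeronasal receptor genes, which act in the nose, 9 had one (0.236 per Mb), and 10.8% (5.58 to 19.9%) of the 74 W1 regions in those windows were W1-only.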

How the data were processed

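ATAC-seq was performed in 24 samples of 12 groups. According to the study's methods, reads were mapped to GRCm38 by PEPATAC, both replicates of a group were merged, and MACS2 then called peaks. The submitters' processing notes name Bowtie2 2.2.9, MACS2 2.1.1, Picard 2.3.0, SAMtools 1.9 and deepTools 2.5.4. The score that the authors give each peak is read here as significance scaled within its list (inferred from list totals, as no file states it), and its minimum was 3. The fold enrichment over local background and the −log10 q-value of each in vivo peak are MACS2 values deposited by the authors. Because a group is 1 list, no replicate test was possible.

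From these lists, in vivo peaks were merged at 1 bp overlap and W1-only regions were taken by presence. The members and the gene lists were chosen with earlier results of these data known. Locations used the region centre, the GENCODE vM21 annotation and every annotated TSS, and sequences came from the GRCm38 genome. Motifs were searched on both strands of the central 200 bp, with the letters given in the report. Some were only plotted: the GRHL motif was searched as AACCGGTT. The motif bound by factors of the ETS family was searched as CCGGAAG. The E-box to which bHLH factors bind was searched as CAGCTG. The binding motif of the NFY complex was searched as CCAATCA together with its close variant CCAATGA. Degenerate consensus sequences served for p63 and CTCF. Gene windows were the gene body with 10 kb on each side. Shares carry 95% Wilson intervals and differences 95% Newcombe intervals, in percentage points, with no p. Peak merging and intervals were tested on simulated data. Named were the 10 strongest members, the 10 protein-coding genes with most members (ties by members per Mb), up to 4 genes per list by W1 score, the 5 strongest members opened by WT-SOX9 or in all 7 culture lists, and the 5 regions nearest the threshold on each side; others named were chosen after their values were seen. A gene of the lists is not reported here. Results were recomputed under 15 other settings, and under 3 more chosen after seeing the data. Python 3.11.15, pandas 2.3.3, NumPy 2.4.6, pyfaidx 0.9.0.4 and matplotlib 3.10.9 were used.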

Additional observations from a re-analysis of the deposited data

How the results depend on the processing

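No paired analysis was possible because the authors merged the replicates of each group into 1 peak list, and for the same reason no replicate could be left out. Of 291 recomputed differences in percentage points, 246 kept their direction and their call, 19 changed sign with an interval that included 0 in both settings, 5 lost and 12 gained an interval that excluded 0, and 9 changed sign with an interval that excluded 0 in both settings (1), in the alternative alone (5) or in the reported setting alone (3); the causes were not tested. With a score of at least 5 in every list there were 3885 W1-only regions, of which 1294 overlapped those described. The share near a TSS was then 15.4%, 3.87 points above D0-only and 4.01 above W2-only regions, GATA was -3.07 and RUNX 2.29 points from D0-only regions. With lists cut to the size of the smallest there were 5928 (4455 overlapping). The TSS share was 14.2% (-2.32 from D0-only, 3.20 from W2-only), CTCF was 0.79 above weak shared W1 regions and noDOX presence 2.35 above W2-only regions. A common −log10 q minimum left 2985 (1847 overlapping), with a TSS share of 16.4% (10.6 above W2-only, 1.15 above weak shared W1). Differences to W2-only regions were then -0.38 for AP1, -0.094 for GATA and 7.81 for noDOX presence, noDOX presence was 2.63 above D0-only regions, and to weak shared W1 regions RUNX was -0.76 and CTCF 0.75. Counting a peak within 500 bp as shared gave a TSS share of 9.86% (-2.18 from D0-only) and SOX9+AFOS presence -1.956 from W2-only regions. Without the W12 list noDOX presence was -4.61 from D0-only regions. Within 5 kb of a TSS lay 35.9% (4.16 above W2-only), and 9.90% lay within 1 kb of a protein-coding TSS. In full regions, which were wider for W1-only than for W2-only regions, AP1 was -0.90 and RUNX 7.80 from W2-only regions. A looser SOX consensus was -0.21 from weak shared W1 regions. Windows of 50 kb on each side gave 6601 genes. Among alternatives added after seeing the data, regions of 45 to 55% GC gave GATA -3.46 from D0-only and RUNX -1.58 from weak shared W1 regions, and regions 1 kb or more from a TSS gave SOX9+AFOS presence -2.68 from W2-only regions.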
